A study of Mus musculus with 5 samples.

Results

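The immunoglobulin genes of bone marrow (BM) plasma cells (PCs) were followed on 5 microarrays through all 57 probe sets, of 45037 other than controls, whose listed gene symbols include an immunoglobulin heavy chain, kappa or lambda light chain gene or the J chain gene. The rule for members uses symbols alone and no measured value, but it was chosen with earlier results of these data known. PCs came from C57BL/6J mice primed and repeatedly boosted with NP-CGG, a hapten on chicken gamma globulin, in incomplete Freund's adjuvant, and were isolated over 30 days after the final boost by magnetic depletion of B220+ and CD49b+ cells and enrichment of CD138high cells. Cultured PCs (3 arrays) spent 3 days on the mouse BM stromal cell line ST2 with the cytokine APRIL at physiological oxygen, and were then sorted by flow cytometry. Ex vivo PCs (2 arrays) gave RNA directly after isolation. The labels name 2 experiments, with 2 cultured arrays and 1 ex vivo array in experiment 2, and 1 of each in experiment 1. Nothing states that the 2 cultured arrays of experiment 2 came from separate cultures, so p-values measure only the spread between these samples, which may be technical.

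An antibody is built from heavy chains, whose constant region sets the isotype (mu for IgM, alpha for IgA, gamma for IgG), and from kappa or lambda light chains. Each PC joins 1 heavy and 1 light chain variable segment to its constant regions and secretes that antibody in large amounts, so immunoglobulin transcripts are among the most abundant of the cell. J chain links IgM and IgA into polymers. Because related segments are alike in sequence, many of these probe sets were designed to be read by more than 1 gene. On this array, the ending _x_at marks probe sets with probes that match other sequences, _s_at marks those shared by several genes, and _a_at marks those shared by transcripts of 1 gene. Of the 57, 17 end in _x_at, 4 in _s_at, 6 in _a_at and 30 in plain _at, and 13 list several symbols. The 29 distinct symbols give 23 heavy chain probe sets, 29 kappa, 4 lambda and 1 for J chain. By region, 18 list only a heavy chain constant region (11 Ighm, 4 Ighg3, 3 Igha), 8 list constant and variable genes together, and 25 only variable genes. A further 4 list the kappa locus as a whole (Igk), and 1 lists Igk-V21, which was grouped with the kappa locus here. No member lists Ighg1, Ighg2b, Ighg2c, Ighd or Ighe, so no probe set was assigned to those isotypes here. Probe sets with several symbols are called by their identifier, and levels are compared only within a probe set.

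Immunoglobulin signals stood at the top of the scale on every array. The values are intensities from RMA, a method that corrects background, normalizes arrays and summarizes the probes of a set, and here they are on a linear scale. The highest value of each array belonged to the Igk probe set 1452557_a_at, for the kappa locus, at 26947, 25860.0 and 23190.5 in cultured PCs (experiment 2 first and second array, then experiment 1) and 26295 and 23871 in ex vivo PCs (experiment 2, then experiment 1). The arrays of experiment 2 were all higher than those of experiment 1 for this probe set, in either condition. Within 1 log2 unit of the highest value lay 12, 11 and 26 immunoglobulin probe sets in cultured PCs and 14 and 27 in ex vivo PCs, in the same order of arrays. All probe sets within that distance numbered 34, 32 and 68 in cultured PCs and 36 and 68 in ex vivo PCs. More probe sets were therefore crowded near the top in experiment 1. On every array, 11 members lay within this distance, and 16 more on some arrays only. No saturation flag was used here, so a signal near the top may understate a difference, and whether any did was not tested. The median intensity of the 57 was 6960.4, 5507 and 10151 in cultured PCs and 6920.4 and 10273 in ex vivo PCs, against medians of 94.1, 94.1 and 89.9 in cultured PCs and 91.9 and 87.1 in ex vivo PCs over all probe sets. Their summed intensity made up 2.58%, 2.31% and 2.96% of the array in cultured PCs and 2.56% and 3.13% in ex vivo PCs, which is a share of summed intensity and not of transcripts.

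**Figure D1:**
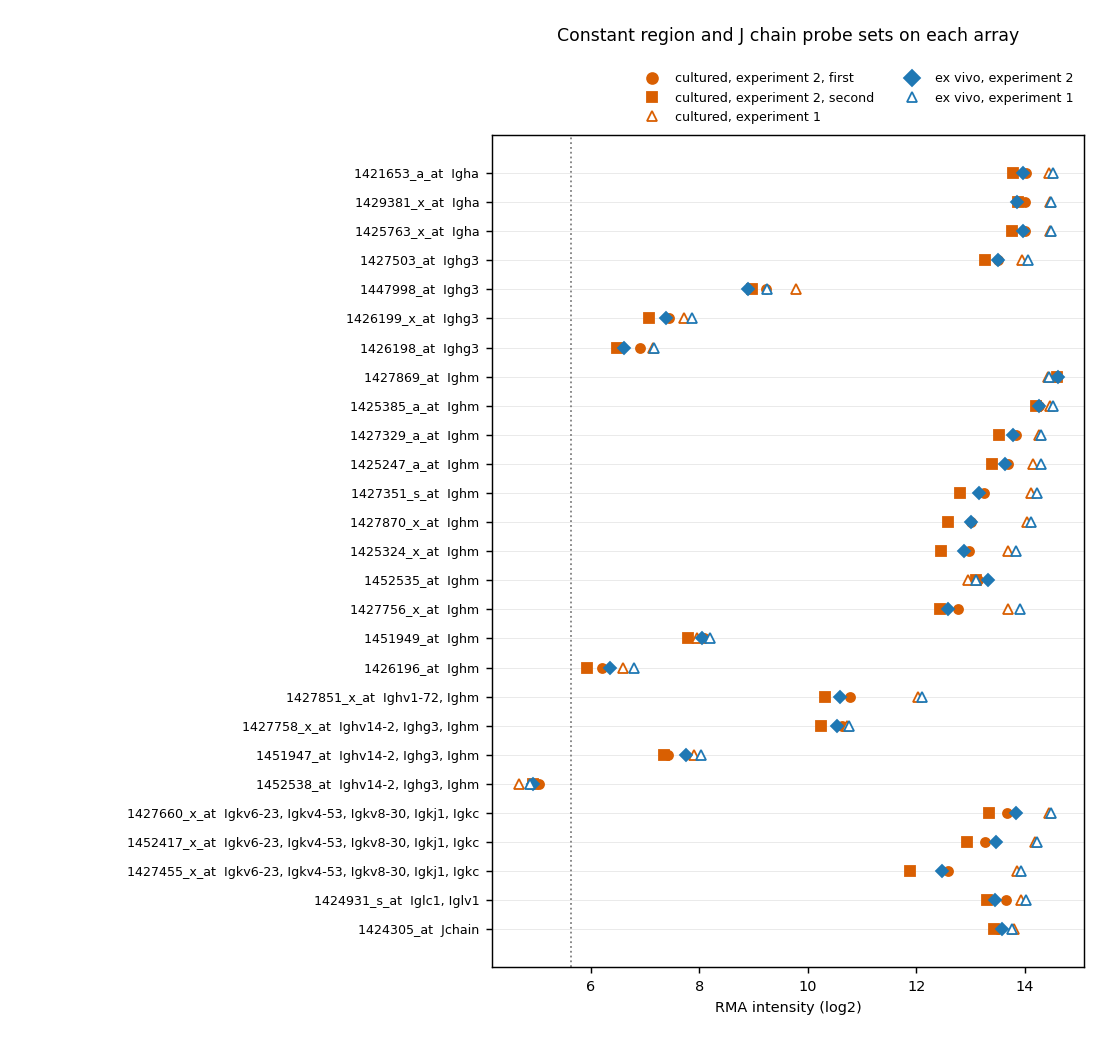
Log2 RMA intensity (horizontal axis) of each of the 27 probe sets that list a constant region or J chain, 1 row each, on 5 arrays. Orange marks cultured and blue ex vivo PCs, filled marks experiment 2 and open triangles experiment 1, and the dotted line the floor of 50. In most bright rows the open triangles of experiment 1 lie to the right of the filled marks, while orange and blue marks of an experiment lie close together.

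Cells of the cultured and ex vivo samples both carried PC transcripts at high levels. Summed over 10 PC markers, intensities were 54502, 54007 and 49611 in cultured PCs and 57799 and 52876 in ex vivo PCs, and 0 of the 10 passed limma's test for culture (0 at an unadjusted p under 0.05). The 12 stromal markers summed to 13710.4, 13932 and 4910.0 in cultured PCs and 788 and 864 in ex vivo PCs, and 2 of the 11 tested were higher in culture (8 higher and 1 lower with the experiment as a block). The 9 mature B cell markers tested summed to 8328, 7758 and 7389 in cultured PCs and 8327 and 6829.6 in ex vivo PCs, with 0 called for culture (0 at an unadjusted p under 0.05). With the block, 0 were called too (2 at an unadjusted p under 0.05). Of 7 macrophage markers tested, 1 was higher and 4 were lower in culture with the block, and of 5 markers of B cell precursors 1 was lower. In the same fit, 1 of 2 markers of T and NK cells tested was lower, and 0 of 3 neutrophil markers passed. Cells of a B lineage other than PCs also transcribe these loci, and fewer cells of a type cannot be told apart from less RNA per cell in such bulk samples. What part the signals of other cell types have in the immunoglobulin values was not tested.

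Whether 3 days of culture changed immunoglobulin transcripts was asked first with limma, a linear model fitted to all 30477 probe sets that reached an intensity of 50 on at least 2 arrays, with Benjamini-Hochberg adjustment over all of them. Of the 57 members, 55 passed that floor. The exceptions were 1427753_at (Igkv1-135) and 1452538_at (Ighv14-2, Ighg3 and Ighm). No immunoglobulin probe set passed an adjusted p of 0.05 for culture (0 of 55, with 0 at an unadjusted p under 0.05), where 0.0459% of all probe sets did. With the experiment as a replicate block the count was again 0 of 55 (0 at an unadjusted p under 0.05), where 1.8% of all probe sets were called. In that fit the log2 differences, cultured minus ex vivo, ran from -0.48 to 0.34 with a median of -0.07, against -0.02 over all probe sets, and 48 were below 0 and 7 above. Standard errors ran between 0.10 and 0.33, and the outermost bounds of the 95% intervals, -1.05 and 1.03, belonged to 1427750_at (Igkv9-120) and 1455530_at (Ighv14-2). The interaction of culture and experiment was called in 0 of 55 (1 at an unadjusted p under 0.05) and 0.0% of all probe sets.

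By isotype and chain, values of both conditions were as follows, and differences between isotypes were not tested. Isotypes are those of the platform's symbols, and which transcripts each probe set reads was not checked. Igha, the alpha constant region, read 16636, 14015 and 22346 in cultured PCs and 16019 and 23403 in ex vivo PCs at 1421653_a_at. At 1425763_x_at it read 16290.4, 13848 and 22391 in cultured PCs and 15863 and 22828 in ex vivo PCs. Within each experiment the Igha values of both conditions were close, and the groups overlapped. With the block, the 3 Igha probe sets differed by -0.07, -0.06 and 0.05 (95% intervals -0.38 to 0.24, -0.36 to 0.25 and -0.23 to 0.33). Jchain, at 1424305_at, read 11543, 10969 and 14150.0 in cultured PCs and 12264 and 13803 in ex vivo PCs. Its difference of -0.06 (SE 0.11, 95% interval -0.33 to 0.22, adjusted p = 0.832 in limma with the block) did not pass the test. Ighm, the mu constant region, read 24441, 24627 and 21839 in cultured PCs and 24782 and 22218 in ex vivo PCs at 1427869_at, a difference of -0.02 (95% interval -0.28 to 0.24). At 1427351_s_at it read 9718, 7125 and 17647 in cultured PCs and 9091 and 19109 in ex vivo PCs, a difference of -0.12 (95% interval -0.52 to 0.28). Ighg3, the gamma 3 constant region, read 11618, 9837 and 15847 in cultured PCs and 11548 and 17048 in ex vivo PCs at 1427503_at, a difference of -0.11 (95% interval -0.41 to 0.20). The 3 probe sets that list Igkc, the kappa constant region, beside kappa variable and joining segments had differences of -0.17, -0.21 and -0.22. Of these, 1427660_x_at read 12981, 10371 and 22176 in cultured PCs and 14613 and 22804 in ex vivo PCs (95% interval -0.58 to 0.16), and 1452417_x_at read 9848, 7828 and 18678 in cultured PCs and 11341 and 19071 in ex vivo PCs (95% interval -0.61 to 0.16). Both were lower in culture in all 3 pairs of arrays, and the groups overlapped. The lambda probe set 1424931_s_at (Iglc1 and Iglv1) read 12834, 10095 and 15627 in cultured PCs and 11194 and 16583 in ex vivo PCs, a difference of -0.02 (95% interval -0.38 to 0.33).

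The differences were then taken within experiments. In experiment 2, taken as the mean of its 2 cultured arrays minus the ex vivo array, the median over the 57 was -0.10, and in experiment 1 it was -0.08, against -0.02 and 0.00 over all probe sets tested. Sizes without regard to sign had a median of 0.11 in experiment 2 and 0.09 in experiment 1, against 0.18 and 0.19 for all probe sets tested. They depended on the place on the scale: the median size was 0.05 and 0.04 in the 11 members near the top on every array, and 0.13 in each experiment in the 30 near the top on none. Centring each array on its PC markers moved the median of all probe sets tested to 0.15 in experiment 2 and 0.10 in experiment 1 and that of the members to 0.07 and 0.02, so the sign of the members' median turned with this scaling, while it stayed below that of all probe sets. A difference of at least 2-fold occurred in 0 of 55 members in experiment 2, where 2.62% of all probe sets had one, and in 1 of 55 in experiment 1, where 2.55% had one. That one was Ighv14-2, a heavy chain variable segment, at 1455530_at, which read 153, 139 and 689.9 in cultured PCs and 195 and 330.0 in ex vivo PCs. It was lower in culture in experiment 2 (-0.35 and -0.49) and higher in experiment 1 (1.06), and its interaction (-1.48, SE 0.18) had an adjusted p of 0.654. Across the 55, the changes in experiment 1 and experiment 2 had a Pearson r of -0.02, which is a description over probe sets that share arrays.

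**Figure D2:**
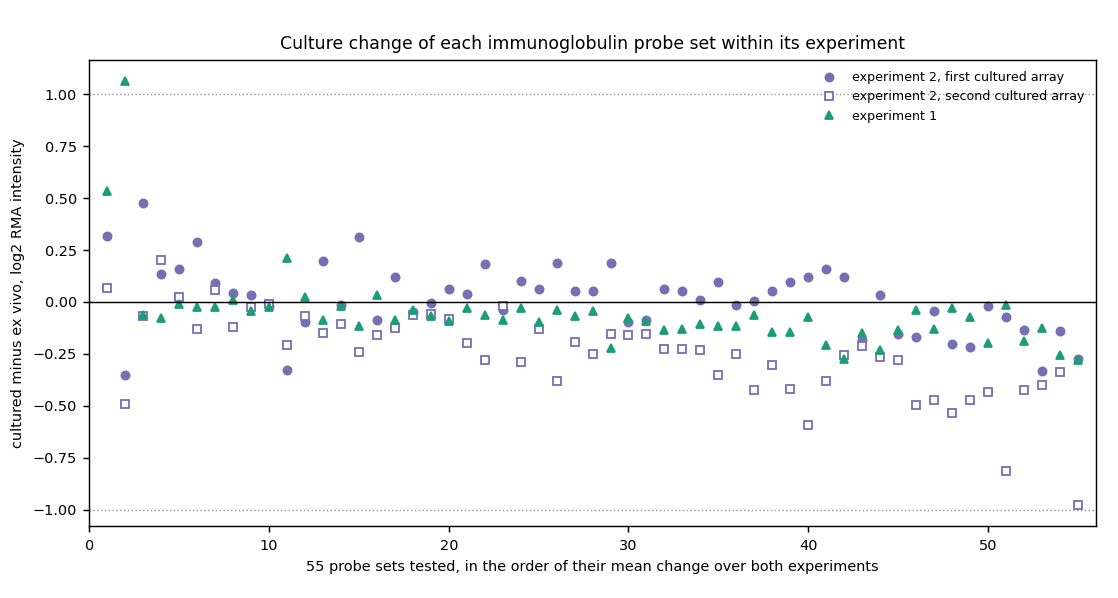
Cultured minus ex vivo difference in log2 RMA intensity (vertical axis) of the 55 probe sets tested, ordered along the horizontal axis by their mean over both experiments, with each cultured array set against the ex vivo array of its experiment. Dotted lines mark 2-fold. Most points lie within 0.5 of 0, the open squares of the second cultured array of experiment 2 mostly lie lowest, and 1 triangle, Ighv14-2 in experiment 1 at 1.06, lies past the upper line.

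Directions shared by all 3 pairs of arrays were mostly downward. Lower in culture in all 3 pairs were 20 of 55 (36.4%, where 24.9% of all probe sets were), and higher in all 3 was 1 (23.1% of all probe sets). The pairs of experiment 2 share 1 ex vivo array. Of the 55, 0 had all cultured arrays below both ex vivo arrays (10.6% of all probe sets did), and 0 had all above (9.42%). Below the floor, Igkv1-135 at 1427753_at read 37.0, 33.2 and 37.2 in cultured PCs and 38.0 and 39.3 in ex vivo PCs, all lower in culture. The 1 member higher throughout was the Ighg3 probe set 1447998_at, at 598, 503 and 877 in cultured PCs and 479.5 and 607 in ex vivo PCs. The groups overlapped, and its difference of 0.34 (SE 0.14, 95% interval -0.02 to 0.69) had an adjusted p of 0.287 with the block. Over the 4 Ighg3 probe sets, the mean difference in experiment 2 ran between -0.13 and 0.19. Among members lower in all pairs, the largest mean difference was that of a kappa variable segment, Igkv9-120, at 1427750_at, with 50.5, 31.0 and 75.1 in cultured PCs and 61.1 and 91.1 in ex vivo PCs. These values lie near the floor, and its difference of -0.48 (SE 0.23) had an adjusted p of 0.347. The next 4 lay close together. The probe set 1427576_at (Igkv6-14, Igkv6-23 and Igkv8-19) read 194, 169.6 and 554 in cultured PCs and 214 and 662 in ex vivo PCs. For 1452463_x_at (Igkv8-30), values were 6492, 3877 and 12808 in cultured PCs and 6821 and 12944 in ex vivo PCs, and its difference was -0.82 for the second cultured array of experiment 2, -0.07 for the first and -0.02 in experiment 1. The probe set 1451947_at (Ighv14-2, Ighg3 and Ighm) read 171, 164 and 240.0 in cultured PCs and 216 and 262 in ex vivo PCs. The Ighm probe set 1426196_at read 74.5, 60.9 and 97.1 in cultured PCs and 81.8 and 111 in ex vivo PCs. None of these 4 passed the test.

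The 2 cultured arrays of experiment 2 were not alike for these genes. The second was below the first in 50 of 55 members (90.9%), where 49.1% of all probe sets were, with a median difference of -0.25 over the 55 and 0.00 over all probe sets tested. All 17 _x_at probe sets were lower in the second. The size of the difference had a median of 0.06 in the 11 members near the top of the scale on every array, 0.33 in the 16 near the top on some and 0.27 in the other 30. Against the ex vivo array of experiment 2, the median of the 57 was 0.04 for the first cultured array and -0.23 for the second, so the array that was used set the direction of the median in that experiment.

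Between the experiments, by contrast, many immunoglobulin probe sets differed. With culture as a covariate, limma called 23 of 55 members (41.8%) lower in experiment 2 (adjusted p under 0.05, experiment 1 as the baseline), where 13.8% of all probe sets were lower, and 2 of 55 (3.64%) higher, where 13.0% were. The median log2 difference, experiment 2 minus experiment 1, was -0.46 over the members and 0.00 over all probe sets. Full separation, with all arrays of experiment 2 below those of experiment 1, occurred in 39 of 55 members (70.9%, where 25.2% of all probe sets showed it), and the reverse in 7 (12.7%, where 24.1% did). An exact permutation test of a single value with 3 arrays against 2 cannot give a p below 0.1. The count was 0 when either ex vivo array was left out, and also when the cultured array of experiment 1 was, and in these fits 0 of all probe sets were called. Without the first cultured array of experiment 2, 30 members were called, and without the second, 14. The 25 members kept their direction in each of these fits, which reuse most of the arrays that selected them, so this is not independent evidence.

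The heavy chains were most often lower. Of 22 tested, 15 were lower (68.2%, where 13.8% of all probe sets were) and 0 higher in experiment 2 (13.0% of all probe sets). The 3 Igha probe sets were all lower, by -0.55, -0.55 and -0.57 (SE 0.12, 0.12 and 0.11), with adjusted p-values between 0.0186 and 0.0272 in limma. At 1429381_x_at, for example, Igha read 16433, 14944 and 14720.3 in experiment 2 (both cultured arrays, then ex vivo) and 22580.3 and 22749.7 in experiment 1 (cultured, then ex vivo). The arrays fell into the experiments with a gap between them and without regard to culture. Of 4 Ighg3 probe sets, 2 were lower, 1427503_at (-0.57, SE 0.12, adjusted p = 0.0244) and 1447998_at (-0.53, SE 0.14, adjusted p = 0.044). The other 2 did not pass. Of these, 1426198_at read 120, 90.1 and 98.5 in experiment 2 and 141 and 144 in experiment 1 (-0.49), and 1426199_x_at read 173, 135 and 167 in experiment 2 and 212 and 234 in experiment 1 (-0.48). Of 11 Ighm probe sets, 7 were lower (63.6%) and 0 higher.

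The size of the difference varied widely among the Ighm probe sets, although they carry the same symbol. At 1427756_x_at, Ighm read 6960.4, 5507 and 6119 in experiment 2 and 13181 and 15354 in experiment 1, a difference of -1.19 (SE 0.15, adjusted p = 0.0059). At 1427870_x_at it read 8210.2, 6115 and 8192 in experiment 2 and 16874 and 17601 in experiment 1, again -1.19. At 1425324_x_at it read 8013, 5619 and 7505 in experiment 2 and 13102 and 14505 in experiment 1 (-0.96, adjusted p = 0.0153). Smaller differences were called at 1425247_a_at, with 13169.6, 10777 and 12599 in experiment 2 and 18237 and 19993 in experiment 1 (-0.64), and at 1427329_a_at, with 14579, 11812 and 14041 in experiment 2 and 19542 and 20129 in experiment 1 (-0.55). Also lower were 1427351_s_at (-1.08, adjusted p = 0.00916) and 1426196_at (-0.49, adjusted p = 0.0445), whose values are given with culture. At the remaining 4, no difference passed the test. Of these, 1425385_a_at read 19503, 18797 and 19543 in experiment 2 and 22421 and 23468 in experiment 1 (-0.24, adjusted p = 0.141), and 1451949_at read 273, 221 and 266 in experiment 2 and 249.6 and 293 in experiment 1 (-0.07), with overlapping values. The other two had positive differences. Of these, 1427869_at read 24441, 24627 and 24782 in experiment 2 and 21839 and 22218 in experiment 1, a difference of 0.16 (SE 0.10, adjusted p = 0.287), and on every array it lay between 0.07 and 0.14 log2 units below the highest value. Likewise 1452535_at, at 8991, 8806 and 10216 in experiment 2 and 7867 and 8712 in experiment 1, differed by 0.20 (adjusted p = 0.207). Whether each probe set labelled Ighm reads mu transcripts, and which part of them, was not analysed here. The platform's symbols may be too coarse for these probe sets, so the values describe the label and not IgM as such. The probe set 1427851_x_at (Ighv1-72 and Ighm) read 1758, 1277 and 1548 in experiment 2 and 4185 and 4378 in experiment 1, a difference of -1.49 (SE 0.16, adjusted p = 0.00484). At 1427758_x_at (Ighv14-2, Ighg3 and Ighm) values were 1592, 1217 and 1485 in experiment 2 and 1699 and 1733 in experiment 1 (-0.26, adjusted p = 0.246), and at 1452538_at, with the same symbols, all 5 arrays lay below the floor.

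Light chains were split. Of 28 kappa probe sets tested, 7 were lower and 2 higher in experiment 2, and of 4 lambda probe sets 1 was lower (1447918_x_at, Iglv1, -0.76, adjusted p = 0.02). In either direction 32.1% of kappa probe sets were called, near the 26.8% of all probe sets. That total is therefore no result about kappa chains. All 3 probe sets that list Igkc were lower, by -1.56, -0.94 and -0.81. The first of them, 1427455_x_at, read 6148, 3749.9 and 5658 in experiment 2 and 14816 and 15577 in experiment 1, which was 0.34 times the level of experiment 1 in the fit (SE 0.22 on the log2 scale, adjusted p = 0.0085). The largest differences of all members lay in 2 probe sets that list Igkv6-14, Igkv6-23 and Igkv8-19. Of these, 1427577_x_at read 166, 152 and 184 in experiment 2 and 619 and 679 in experiment 1, a difference of -1.93 (SE 0.11, adjusted p = 0.00255), and 1427576_at differed by -1.62 (SE 0.12, adjusted p = 0.00263). Another probe set with the same symbols, 1451965_at, read 8177, 6719.8 and 7870.3 in experiment 2 and 9241 and 10114 in experiment 1, a difference of -0.34 that did not pass (adjusted p = 0.11). Here too the size of the difference depended on the probe set.

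The variable segments Igkv6-15 and Igkv19-93 ran the other way. Igkv6-15, at 1427859_at, read 21177, 21478 and 21778 in experiment 2 and 12595 and 13387 in experiment 1. The 2 experiments were far apart and the arrays within each were close, with a difference of 0.74 (SE 0.10, adjusted p = 0.00803). Igkv19-93, at 1427855_at, read 19075, 18185 and 20235 in experiment 2 and 13415 and 14287 in experiment 1, a difference of 0.49 (SE 0.11, adjusted p = 0.0243). This call was lost without either cultured array of experiment 2, while that of Igkv6-15 held there. Leaving out any other array left no call among all probe sets, as given above, so those fits carry no information on this call. Over the 5 fits with 1 array left out, the difference of Igkv19-93 at 1427855_at lay between 0.47 and 0.51. The other Igkv19-93 probe set, 1427856_a_at, had a difference of -0.45 that did not pass (adjusted p = 0.133). Igk-V21, at 1427858_at, read 17445, 17254 and 18012 in experiment 2 and 14063 and 14444 in experiment 1, a difference of 0.31 with an adjusted p of 0.0781. Lower in experiment 2 were the segments Igkv8-30 at 1452463_x_at (-1.17, SE 0.25, adjusted p = 0.0225) and Ighv14-2 at 1455530_at (-1.61, SE 0.33, adjusted p = 0.0208), and the kappa locus at 1427757_at (-1.06, SE 0.19, adjusted p = 0.014). Jchain differed by -0.26 (SE 0.11, adjusted p = 0.135).

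**Figure D3:**
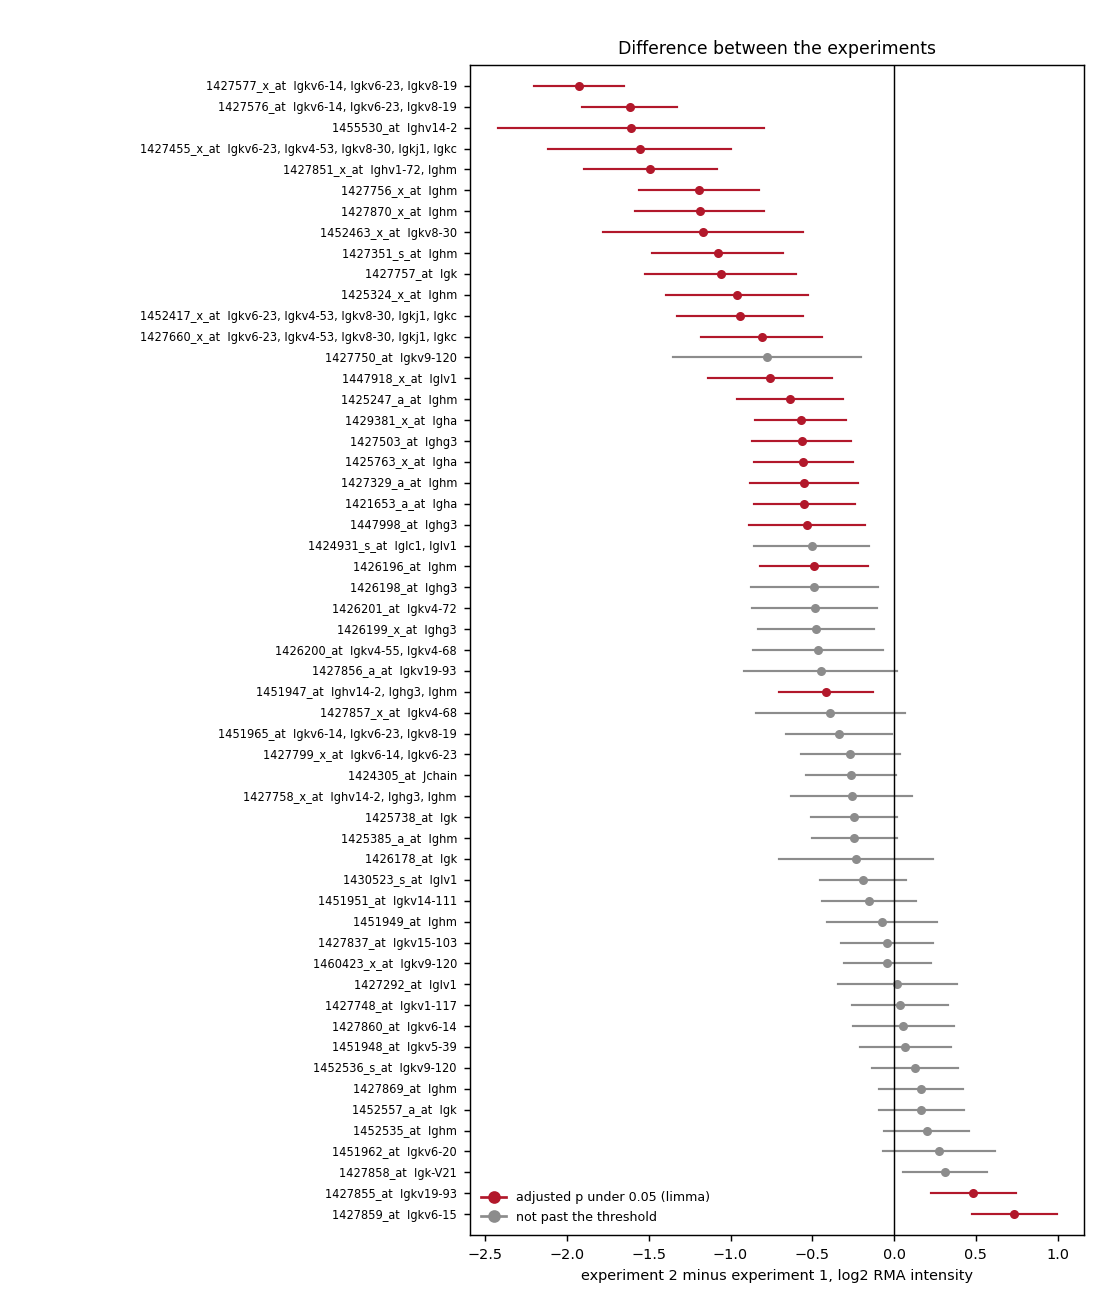
Experiment 2 minus experiment 1 in log2 RMA intensity (horizontal axis), with culture as a covariate, for the 55 probe sets tested, ordered by difference. Points are limma estimates and bars 95% intervals, red where the adjusted p was under 0.05. The 23 called below 0 reach -1.93, and the 2 called above 0 are Igkv19-93 and Igkv6-15.

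The difference between the experiments was present in each condition. In ex vivo PCs alone (1 array an experiment) its median was -0.42 and in cultured PCs alone (2 arrays against 1) -0.47, and the sign was the same in 53 of 55 members. The share with the same sign over all probe sets was not taken, so this count is not read as particular to these genes. In both conditions 43 members (78.2%) were lower in experiment 2, against 37.1% of all probe sets tested. The differences had a Pearson r of 0.91 across the 55 probe sets, which are not independent replicates. Ighv14-2 at 1455530_at stood apart, with -2.25 in cultured and -0.76 in ex vivo PCs.

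**Figure D4:**
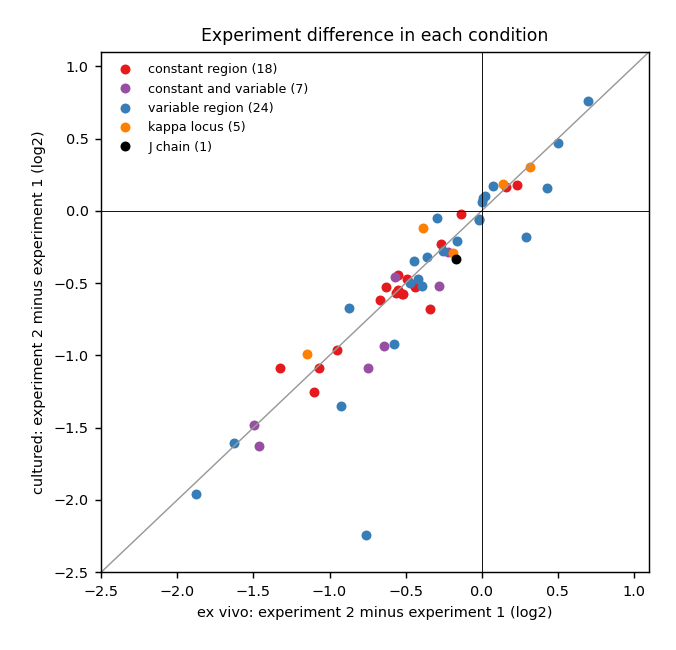
Experiment 2 minus experiment 1 in log2 RMA intensity in cultured PCs (vertical axis) against that in ex vivo PCs (horizontal axis) for the 55 probe sets tested, coloured by region, with the line of equal values. Most points lie near the line and below 0 on both axes, and the lowest point, Ighv14-2, lies below the line at -2.25.

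Several measures moved with the experiment beside these genes. By probe set design, the median difference was -0.81 in _x_at (12 of 17 lower), -0.50 in _a_at (3 of 6), -0.35 in _s_at (1 of 4) and -0.24 in plain _at probe sets (7 lower and 2 higher of 28). By position on the scale, 11 of the 16 members near the top on some arrays only were lower, against 3 lower and 2 higher of the 11 near the top on every array and 9 lower of 28 tested among the rest. These positions were set from the same values, and most of the 16 were near the top in experiment 1 only. The counts by position were therefore partly fixed in advance. Control probe sets placed at both ends of housekeeping transcripts differed as well. The log2 ratio of the end nearest the tail to the opposite end was -0.11, -0.01 and -0.12 for Actb in experiment 2 (both cultured arrays, then ex vivo), and 0.77 and 0.31 in experiment 1 (cultured, then ex vivo). The Gapdh ratio was 0.30, 0.28 and 0.34 in experiment 2, and 0.63 and 0.74 in experiment 1. Among markers of cell types, 3 of 10 for PCs and 3 of 9 for mature B cells were higher in experiment 2 and none of these was lower, where 13.0% of all probe sets were higher and 13.8% lower. Of the others tested, 1 of 11 for stromal cells and 1 of 2 for T and NK cells were higher, 1 of 5 for B cell precursors and 1 of 3 for neutrophils were lower, and 0 of 7 for macrophages passed (0 at an unadjusted p under 0.05). The part of these measures in the immunoglobulin difference was not tested.

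Genes that act on immunoglobulin expression were then read from the same fits. Of 54 listed, 48 were tested, and 0 passed limma's test for culture in either fit. At an unadjusted p under 0.05 there were 2 in the fit of culture alone (4.17%, against 6.59% of all probe sets) and 12 with the block (25.0%, against 18.5%). Between the experiments 12 passed (25.0%), 4 higher and 8 lower in experiment 2, a share near the 26.8% of all probe sets, so the count is no result about this list. Among 13 transcription factors of immunoglobulin genes tested, 5 were lower and 1 higher, where 13.8% of all probe sets were lower and 13.0% higher. Ebf1, a factor of early B cells, read 301, 335 and 312 in experiment 2 and 792 and 719 in experiment 1 (-1.27, SE 0.11, adjusted p = 0.0034). Tcf3, which binds E boxes of heavy and kappa enhancers, differed by -0.82, Spi1, a factor at light chain enhancers, by -0.72, Pou2f2, which binds the octamer of immunoglobulin promoters, by -0.68, and Ets1 by -0.52, with adjusted p-values between 0.0105 and 0.0381. Xbp1, the factor that drives the secretory apparatus of PCs, was higher in experiment 2 at 15937, 16030.3 and 15983, against 10694 and 12450.2 in experiment 1 (0.49, SE 0.11, adjusted p = 0.0298). For Irf4, Prdm1 and Pou2af1, which sustain PC identity or coactivate immunoglobulin promoters, differences of 0.15, -0.34 and -0.03 did not pass.

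Of 8 genes for the processing that favours secreted over membrane heavy chain transcripts, Pcf11, a cleavage factor, was higher (0.64, adjusted p = 0.0227) and Cpsf1, a polyadenylation factor, lower in experiment 2 (-0.75, adjusted p = 0.0118). Ell2, the elongation factor that promotes the secreted form, read 3595, 3919 and 4109.97 in cultured PCs and 4074 and 3842 in ex vivo PCs, with overlapping groups and no call in any of these fits. Of 12 tested genes that fold and assemble antibody chains in the endoplasmic reticulum, P4hb, a disulfide isomerase (0.40, adjusted p = 0.0459), and Sdf2l1, a chaperone partner (0.60, adjusted p = 0.0225), were higher in experiment 2. With culture, Txndc5, another disulfide isomerase, read 8084, 6956 and 7949 in cultured PCs and 9407 and 11324 in ex vivo PCs. These groups did not overlap, as in 10.6% of all probe sets with cultured lower, and its difference of -0.41 did not pass (adjusted p = 0.182 with the block). Hspa5, which binds unassembled heavy chains, read 8063, 7551 and 10928 in cultured PCs and 8692 and 10469 in ex vivo PCs. The groups overlapped. Of 3 tested genes of switching and hypermutation, Ung, which removes uracil from DNA, was lower in experiment 2 (-0.71, adjusted p = 0.0498). Of 7 immunoglobulin receptors, Fcgr3 was lower (-0.42, adjusted p = 0.0448). Its values lie near the floor, at 43.9, 44.8 and 63.6 in experiment 2 and 63.6 and 77.8 in experiment 1. Neither surface receptor partner (Cd79a and Cd79b) and none of 3 tested surrogate light chain genes passed. Igll1, a surrogate light chain component of B cell precursors, read 4825, 4475 and 5187 in cultured PCs and 5187 and 5998 in ex vivo PCs. Its level was not shared by the list. Vpreb3 read 466, 419 and 499 in cultured PCs and 564 and 522 in ex vivo PCs. Vpreb1 lay near the floor, at 57.1, 49.8 and 42.8 in cultured PCs and 65.6 and 93.9 in ex vivo PCs.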

How the data were processed

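RNA of cultured PCs (3 arrays) and ex vivo PCs (2 arrays) was measured on Affymetrix mouse arrays. The authors used RMA in the affy R package, and GCOS is named in the submitters' processing notes. Tool versions were not given in the sources used here. RMA intensities were deposited on a linear scale and were converted to log2 here. The number of arrays limits the precision. Of 45101 probe sets, 64 controls were left out, and symbols came from the platform annotation (56 of the 57 members' gene identifiers were also in the RefSeq table). Condition and experiment came from the labels. The experiments pair the samples, as the labels share them between the groups: deviations from group means correlated at 0.75 in experiment 1 and at 0.56 and 0.72 in experiment 2, where the deviations of a pair of ex vivo arrays are equal and opposite.

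Probe sets at an intensity of 50 or more on at least 2 of 5 arrays (30477) entered limma 3.58.1 under R 4.3.3 (lmFit, eBayes, Benjamini-Hochberg adjusted p under 0.05): for culture, without and with a block for the experiment, for the difference between the experiments given culture, and for their interaction (1 residual degree of freedom). The step was tested on simulated data. Standard errors are limma's. For a listed gene the tested probe set of highest mean with that single symbol was taken. The members and lists were chosen with earlier results of these data known. Named members, by rule, are all that list a constant region or J chain, up to 10 called ones with the largest difference, those with the largest differences of 1 direction in all pairs, the 5 highest and 5 lowest between the experiments and the 5 brightest, with up to 4 called genes of each list. The other probe sets and listed genes with values were chosen after their values were seen. Alternatives were the block, the filter, the normalization, the moderation, the choice of members and leaving out each array. Coordinates are left out, since the array values name no genome build. Figures were drawn with matplotlib 3.10.9.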

Additional observations from a re-analysis of the deposited data

How the results depend on the processing

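No immunoglobulin probe set was called for culture under any alternative run, with or without the replicate block (0 with the replicate block in the main setting). The lowest adjusted p was 0.0834, with the block and centring on PC markers, a run that called 2170 of 30477 probe sets. Several other runs called 0 of all probe sets, so a 0 for the members carries no information there. One of these was the fit without the block on averaged cultured arrays of experiment 2. The block changed no call of a member. The count of 25 members called between the experiments was 12 among probe sets other than _x_at and _s_at (of 34 tested), and ranged between 0 and 30 when each array was left out. Without any 1 of the 3 arrays that are single in their group and experiment the count over all probe sets was 0 too in these fits with fewer arrays. Under the other settings, on the same arrays, it was between 22 and 29, and all 25 tested kept their direction (24 of 24 tested at a floor of 100). Averaging the 2 cultured arrays of experiment 2, chosen after seeing the data, gave 22, of which 21 were among the 25. Quantile normalization gave 22 (19 lower, 3 higher), with Igk-V21 at 0.41 newly called. The 11 members near the top on every array became 3 within 0.5 and 26 within 2 log2 units. Leaving out arrays moved the culture difference of 1427576_at, without the block, between -1.33 and 0.30 and that of 1452463_x_at between -0.92 and 0.0074, and in each the sign turned without the ex vivo array of experiment 1. The median change in experiment 2 lay between -0.23 and 0.04 with 1 cultured array. Signals near the top of the scale and values near the floor limit what these arrays can show.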
